A study of Mus musculus with 15 samples.

Results

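The mouse Hox genes are 39 homeobox genes in 4 clusters, and all 39 were found by name in the deposited tables, among 55536 genes in all. A gene was taken when its name was Hox, a cluster letter from a to d and a number, and each was joined between the tables by its gene identifier. The expression data came from skeletal muscle of 15 mice, all labelled as male and 2 months of age. There were 5 wild type controls, 5 mice of the genotype PdgfrB Knock Out and 5 of the genotype PdgfrB D489V, a constitutively active form of the same receptor. Per the design text, both alleles act in cells that express myogenin, a factor of differentiating muscle, so that Pdgfrb in other cells of the tissue is not the direct target. The labels name neither the muscle nor a strain, litter or batch, and do not say that the mice were not littermates, so the p-values below measure the spread between these samples.

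Hox genes encode homeodomain transcription factors that give cells of the embryo their position along the body and limb axes. They are numbered from 1 to 13 by their place in the cluster, and genes with the same number in different clusters are paralogues. Low numbers are switched on early and towards the head, high numbers late and towards the tail. In the limb, groups 9 and 10 act in the upper segment, group 11 in the middle segment and group 13 in the hand and foot. Hoxc10 and Hoxc11 are known from the hindlimb. Stromal and muscle cells of the adult keep much of this pattern, and whole tissue RNA adds up the reads of all of them. Fewer cells of a type and less RNA per cell cannot be told apart in such samples.

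The clusters lie on 4 chromosomes (GRCm38, GENCODE M21). Hoxa holds 11 genes on chromosome 6 (minus strand), Hoxb 10 genes on chromosome 11, Hoxc 9 genes on chromosome 15 and Hoxd 9 genes on chromosome 2, the last 3 on the plus strand. The cluster spans, from the first to the last annotated base, were 105 kb, 174 kb, 116 kb and 96.8 kb. RefSeq promoter windows on GRCm38.p6 were at hand for 22 of the 39 genes. The following 250 bases lie directly before the RefSeq start of 6 genes on which the results turn and hold no annotated exon. For Hoxd10 the start in GENCODE M21 lies another 33 bases on, and for the other 5 genes both starts are the same. Hoxd8, Hoxd10 and Hoxa13 were high in the same samples, while Hoxa5, Hoxb4 and Hoxb8 were lower in knockout than in D489V muscle. Capitals mark 6 short motifs searched on both strands: TGATTNAT (Hox with Pbx), TAATTA (homeodomain), TTTAT followed by any base and G (Cdx and posterior Hox), GGGCGG (GC box), CCAAT (factor NF-Y) and AGGTCA (nuclear receptor). Matches that overlap run together in capitals.
Hoxd8 promoter (chr2:74704365-74704614, plus strand): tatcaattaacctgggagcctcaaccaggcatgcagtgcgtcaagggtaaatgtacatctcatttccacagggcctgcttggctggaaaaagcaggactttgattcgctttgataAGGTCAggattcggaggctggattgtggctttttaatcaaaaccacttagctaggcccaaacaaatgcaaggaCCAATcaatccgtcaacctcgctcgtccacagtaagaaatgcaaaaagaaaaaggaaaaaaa
Hoxd10 promoter (chr2:74691641-74691890, plus strand): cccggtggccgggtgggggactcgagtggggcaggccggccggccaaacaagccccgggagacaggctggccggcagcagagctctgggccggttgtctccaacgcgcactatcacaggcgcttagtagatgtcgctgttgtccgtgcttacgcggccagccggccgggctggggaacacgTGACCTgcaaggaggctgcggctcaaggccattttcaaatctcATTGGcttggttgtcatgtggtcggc
Hoxa13 promoter (chr6:52260881-52261130, minus strand): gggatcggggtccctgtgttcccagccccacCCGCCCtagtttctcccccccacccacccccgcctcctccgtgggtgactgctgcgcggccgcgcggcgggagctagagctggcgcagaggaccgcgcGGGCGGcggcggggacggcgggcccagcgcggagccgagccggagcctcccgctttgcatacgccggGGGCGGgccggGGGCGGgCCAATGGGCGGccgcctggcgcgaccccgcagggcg
Hoxa5 promoter (chr6:52204588-52204837, minus strand): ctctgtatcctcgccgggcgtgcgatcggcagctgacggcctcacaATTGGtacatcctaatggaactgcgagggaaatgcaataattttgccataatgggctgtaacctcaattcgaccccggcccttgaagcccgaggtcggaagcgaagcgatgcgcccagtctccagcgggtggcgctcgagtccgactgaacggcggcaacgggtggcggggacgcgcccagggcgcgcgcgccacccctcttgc
Hoxb4 promoter (chr11:96318017-96318266, plus strand): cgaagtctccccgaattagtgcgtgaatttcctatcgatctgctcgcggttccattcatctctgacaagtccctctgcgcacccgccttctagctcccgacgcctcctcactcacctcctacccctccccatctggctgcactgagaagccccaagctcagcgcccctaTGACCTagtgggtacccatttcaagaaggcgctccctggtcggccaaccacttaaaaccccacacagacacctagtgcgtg
Hoxb8 promoter (chr11:96281655-96281904, plus strand): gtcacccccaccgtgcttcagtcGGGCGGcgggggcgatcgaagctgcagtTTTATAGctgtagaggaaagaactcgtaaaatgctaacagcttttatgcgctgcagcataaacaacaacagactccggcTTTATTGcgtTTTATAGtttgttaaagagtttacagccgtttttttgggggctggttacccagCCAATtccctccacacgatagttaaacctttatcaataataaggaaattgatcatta

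Of these 6 sequences, Hoxb8 held 3 matches to the Cdx motif, and the other 5 held none. A match to it was found in 2 of the 24 Hox windows (8.3%) and in 9.8% of all 32841 RefSeq windows of this length. CCAAT was matched in 14 of the 24 Hox windows (58.3%) and in 33.9% of all windows. GGGCGG was matched in 10 of 24 Hox windows (41.7%) against 32.7% of all, and AGGTCA in 6 of 24 (25%) against 14%. TGATTNAT and TAATTA were each in 2 Hox windows (8.3%), against 2.8% and 4.8% of all windows. The Hox windows held a median of 12.5 CpG dinucleotides, and all windows a median of 6. Hoxa13 had 35 CpG and 5 GC boxes, while Hoxd8 had 6 CpG and no GC box. These matches describe the sequence and are not measured sites.

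Sample checks came first. The normalized counts summed to 29815559 to 36489777 per sample, which does not measure sequencing depth. All 9 muscle fibre markers, among them Acta1, Ckm and Myh4, were high in every sample, with summed levels of 5336004 to 6687870 in controls, 5068663 to 7037840 in knockout and 5483118 to 6296168 in D489V muscle. Xist reached 3165 normalized counts in knockout 3, although the label says male, and 101 or less in the rest. D489V 3 held 2400 normalized counts of the keratinocyte genes Krt5 and Krt14 together, against at most 68 elsewhere, and 45477 of 5 Schwann cell genes, against 5592 to 13627 elsewhere. Counts over the Hox genes are also given without these 2 samples.

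Hoxc10 was the leading Hox gene of the muscle. Its level per kilobase of exon was 1084 normalized counts, averaged over the 15 samples, with a sample range of 915 to 1314. Hoxd8 came next at 261 per kilobase (range 120 to 444), followed by Hoxd9 at 183, Hoxc9 at 176 and Hoxa7 at 170. The sample ranges of the levels of these last 4 genes overlapped, so that their order is not fixed. With the longest transcript as the length, Hoxa7 stood at 241 and Hoxc6 at 197, up from 130, and Hoxc10 and Hoxd8 remained first and second. Of the 39 genes, 18 had a mean normalized count of 50 or more, 7 in Hoxa, 2 in Hoxb, 7 in Hoxc and 2 in Hoxd. Hoxc gave the highest summed mean count, 3578, and Hoxb the lowest, 373.

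Several members had very low counts. Hoxb13 and Hoxd12 were listed at 0 in all 15 samples. Hoxb1, Hoxc12, Hoxc13, Hoxd1, Hoxd3 and Hoxd11 reached at most 1, 1, 4, 4, 5 and 5 normalized counts. Hoxd13 held 0 to 15. These genes were among the 10 that did not pass the filter of 10 or more normalized counts in at least 5 of the 10 samples compared, so 29 Hox genes were tested in each comparison. Hoxa2 (6 to 26), Hoxa6 (14 to 38), Hoxb2 (3 to 54), Hoxb9 (5 to 24) and Hoxd4 (11 to 71) passed at low levels.

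**Figure D1:**
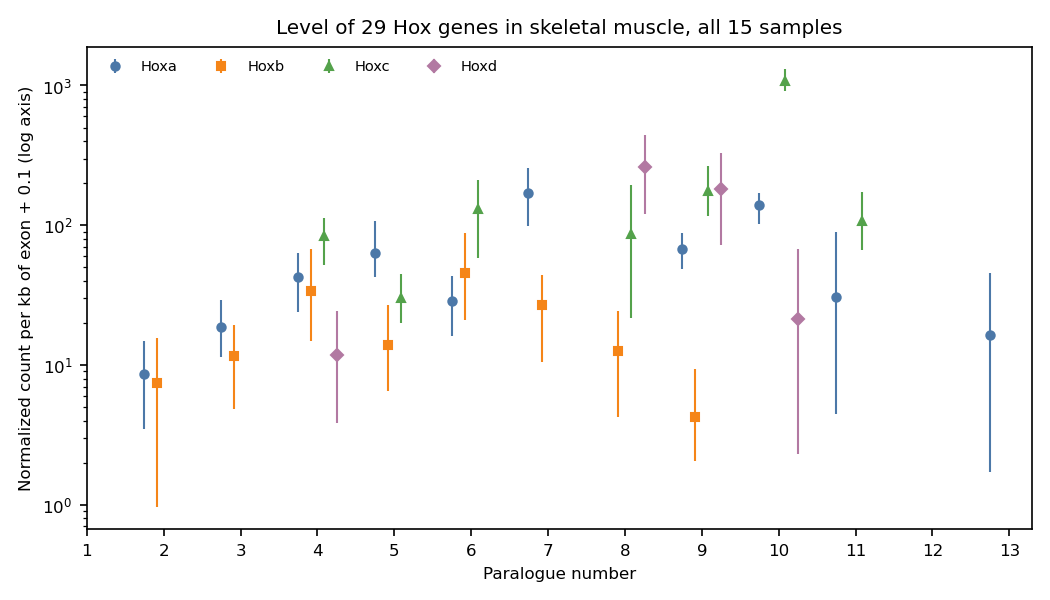
Mean normalized count per kilobase of exon plus 0.1 (log axis) of the 29 Hox genes that passed the filter, by paralogue number, with symbols by cluster and bars from the lowest to the highest of 15 samples. Hoxc10 stands at 1084 per kilobase, above every other member, and Hoxd8 comes next at 261.

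Some reads of neighbouring genes cannot be assigned to one gene. Exons of 10 members overlap annotated genes on the opposite strand. Hoxb3os covers 52.9% of the exon bases of Hoxb3 and 27.3% of those of Hoxb2, and Hoxa11os covers 35% of those of Hoxa11. The libraries kept the strand, but whether the counting used it is not given in the sources used here. On the same strand, exons of 9 members overlap another annotated gene. Hoxd3 and Hoxd4 share 388 exon bases and Hoxc5 and Hoxc10 share 166. The gene Gm28230 covers 53.1% of the exon bases of Hoxd3 and 39.1% of those of Hoxd4. How reads in shared bases were counted is not given in the sources used here, which limits the levels of these genes.

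The Hox genes varied more between mice of one group than most genes did. The SD of log2(value + 1) within groups, pooled over the 3 groups, had a median of 0.55 over the 29 members and of 0.28 over 15807 genes with 10 or more normalized counts in at least 5 samples. Among genes with a mean of 30 to 1000, the median SD was 0.56 for 24 members and 0.26 for all 9408. Of the 29 members, 24 lay above the median of all genes and 6 above the 90th percentile. Those 6 were Hoxd10 (SD 1.62), Hoxa13 (1.54), Hoxa11 (1.37), Hoxc8 (0.93), Hoxd9 (0.86) and Hoxb2 (0.81). Hoxc10, the most abundant member, had an SD of 0.13, at the 10.1th percentile. Hoxc8, with the widest spread of the Hoxc cluster, and Hoxc10, with the narrowest, are parted only by Hoxc9 in number.

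The first pattern ran through all 3 groups. Hoxd8, Hoxd9, Hoxd10, Hoxa11, Hoxa13 and Hoxc11 were each highest in the same 6 samples, namely controls 4 and 5, knockouts 3, 4 and 5 and D489V 3. The 6 samples were read off Hoxd9, so the other 5 genes are the ones that could differ. Over all 15807 genes, 71 (0.449%) had these same 6 samples highest. After upper-quartile rescaling the same 6 members kept this order. Without knockout 3 and D489V 3, a choice made after seeing the data, 13 samples are left, and the same 6 members kept the remaining 4 samples highest, which follows from the order above. No other Hox gene joined them, and 1.37% of all genes had these 4 samples highest.

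Hoxd9, a gene of the upper limb segment, held 210, 166, 153, 614 and 577 normalized counts in controls 1 to 5, 274, 179, 638, 707 and 655 in knockouts 1 to 5 and 294, 258, 672, 255 and 204 in D489V samples 1 to 5. The lowest of the 6 high samples, control 5, stood 1.96 times above the highest of the other 9, D489V 1. Its 3' neighbour Hoxd8, 4.41 kb away, held 482, 418, 328, 1218 and 1070 normalized counts in controls 1 to 5, 511, 410, 1181, 1110 and 1170 in knockouts 1 to 5 and 448, 422, 1091, 480 and 418 in D489V samples 1 to 5. The gap between the 6 samples and the other 9 was 2.09-fold, from 1070 to 511. Hoxd10, 2.62 kb on the 5' side of Hoxd9, is lower in level. It held 6, 4, 9, 79 and 54 normalized counts in controls 1 to 5, 21, 4, 87, 62 and 60 in knockouts 1 to 5 and 11, 16, 122, 23 and 17 in D489V samples 1 to 5. Its highest sample was 30.5 times its lowest, and the high samples were at least 54 against at most 23.

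Further on the 5' side the levels were very low. Hoxd11, the next gene, held 0, 0, 0, 4 and 5 normalized counts in controls 1 to 5, 0, 0, 0, 1 and 4 in knockouts 1 to 5 and 0, 0, 3, 0 and 2 in D489V samples 1 to 5. Its few counts lay mostly in the same samples, but knockout 3 was at 0 and D489V 5 at 2. Hoxd13 did not share the order and held 3, 7, 9, 3 and 0 normalized counts in controls 1 to 5, 2, 15, 2, 0 and 0 in knockouts 1 to 5 and 5, 3, 0, 8 and 8 in D489V samples 1 to 5. The 6 samples were at 3 or less and the others at 2 to 15. Evx2, a homeobox gene beyond Hoxd13, was at 0 to 4 in the 6 samples and 4 to 32 in the others. These 3 genes were singled out after their values were seen. Hoxd4, the nearest expressed gene on the 3' side, had 2 of the same samples among its 6 highest (with a tie at 34), and held 49, 71, 19, 45 and 30 normalized counts in controls 1 to 5, 25, 11, 30, 22 and 31 in knockouts 1 to 5 and 37, 34, 56, 22 and 34 in D489V samples 1 to 5. The 3 Hoxd genes with the shared order thus lie side by side.

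In the Hoxa cluster the order was shared by the last 2 genes. Hoxa11, which patterns the middle limb segment, held 10, 24, 31, 204 and 120 normalized counts in controls 1 to 5, 30, 12, 101, 137 and 138 in knockouts 1 to 5 and 36, 35, 93, 38 and 35 in D489V samples 1 to 5. All 6 high samples were at 93 or more and the other 9 at 38 or less. Hoxa13, the gene of the hand and foot segment, held 15, 13, 9, 89 and 59 normalized counts in controls 1 to 5, 10, 8, 113, 87 and 97 in knockouts 1 to 5 and 4, 11, 58, 23 and 10 in D489V samples 1 to 5. Here the high samples ran from 58 to 113 and the others from 4 to 23. Hoxd10, Hoxa13 and Hoxd4, with means of 38.3, 40.4 and 34.4, were singled out after their values were seen, since they lie below the mean of 50 set for printing every sample.

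The order stopped within a short distance of these genes. Hoxa10 lies 1.25 kb from Hoxa11 and held 332, 423, 458, 556 and 538 normalized counts in controls 1 to 5, 488, 418, 389, 519 and 466 in knockouts 1 to 5, and 404 to 523 in the 5 D489V samples. Its highest sample was only 1.67 times its lowest, and 4 of its 6 highest samples were among those named. Hoxc11 was the only Hoxc gene with the shared order, and held 169, 171, 137, 301 and 350 normalized counts in controls 1 to 5, 156, 138, 244, 289 and 276 in knockouts 1 to 5 and 200, 153, 338, 134 and 181 in D489V samples 1 to 5. Its gap was the narrowest of the 6 genes, from 244 in knockout 3 to 200 in D489V 1. Hoxc10, 9.09 kb further along, held 2016, 2153, 2136, 2281 and 1977 normalized counts in controls 1 to 5, 2508, 1960, 1860, 1898 and 1746 in knockouts 1 to 5 and 2075, 2183, 1906, 2187 and 2162 in D489V samples 1 to 5. It varied by 1.44 times in all and had 1 of the 6 samples among its highest.

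**Figure D2:**
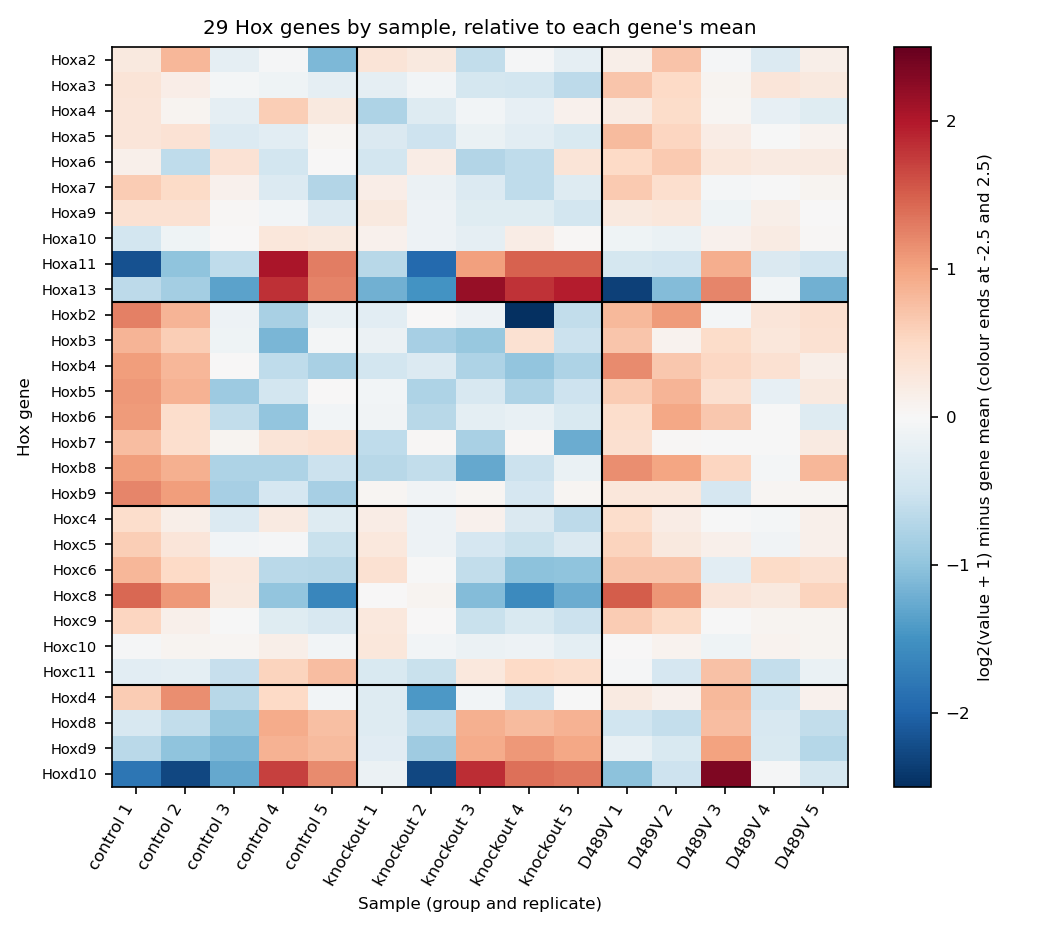
Heat map of 29 Hox genes (rows, by cluster and number) in 15 samples (columns, by group), as log2(value + 1) minus the gene's mean. Hoxa11, Hoxa13 and Hoxd8 to Hoxd10 are red in controls 4 and 5, knockouts 3 to 5 and D489V 3, while Hoxb2 to Hoxb9 and Hoxc8 are red mainly in controls 1 and 2 and D489V 1 and 2.

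Genes in the middle of the Hoxc cluster ran the other way. Hoxc6 was lowest in exactly these 6 samples, an order that 92 of 15807 genes (0.582%) showed. It held 510, 402, 344, 179 and 176 normalized counts in controls 1 to 5, 374, 284, 186, 139 and 142 in knockouts 1 to 5 and 465, 461, 239, 400 and 379 in D489V samples 1 to 5. The 6 samples were at 239 or less and the others at 284 or more. Hoxc8 held 523, 407, 228, 96 and 61 normalized counts in controls 1 to 5, 193, 201, 90, 63 and 81 in knockouts 1 to 5 and 549, 416, 237, 228 and 284 in D489V samples 1 to 5. Controls 4 and 5 and knockouts 3 to 5, at 61 to 96, were its 5 lowest samples, and D489V 3 at 237 was not among the 6 lowest. Hoxc9 held 599, 450, 414, 337 and 313 normalized counts in controls 1 to 5, 500, 417, 283, 320 and 286 in knockouts 1 to 5 and 644, 578, 414, 436 and 433 in D489V samples 1 to 5, with 5 of the 6 samples among its lowest and D489V 3 level with control 3 at 414. Hoxa7, Hoxa9, Hoxa3, Hoxb4 and Hoxc10 also had 5 of the 6 among their lowest samples. Without knockout 3 and D489V 3, a choice made after seeing the data, 5 Hox genes had the remaining 4 samples lowest. These were Hoxa7, Hoxb4, Hoxc6, Hoxc8 and Hoxc9, or 17.2% of those tested, against 2.08% of all genes. For Hoxc6 this follows from the order above.

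Limb genes were read for the same order. Of 31 limb and position factors, 1 had the same 6 samples highest, Isl1, and 1 had them lowest, Tbx5. Over all 15807 genes the shares were 0.449% and 0.582%. Isl1, a factor of the early hindlimb field, reached 18 normalized counts at most. Tbx5, the forelimb T-box factor, was lowest in the same 6 samples. It held 94, 74, 81, 11 and 1 normalized counts in controls 1 to 5, 57, 46, 16, 2 and 1 in knockouts 1 to 5 and 78, 68, 5, 59 and 64 in D489V samples 1 to 5, so that the 6 samples were at 16 or less and the others at 46 or more. Tbx4, the hindlimb T-box factor, held 80, 78, 86, 160 and 170 normalized counts in controls 1 to 5, 76, 110, 106, 164 and 147 in knockouts 1 to 5 and 59, 56, 73, 99 and 70 in D489V samples 1 to 5. Its 4 highest samples, controls 4 and 5 and knockouts 4 and 5, belong to the 6, but knockout 3 and D489V 3 do not stand out. Pitx1, which specifies the hindlimb, was read in every sample at 15 to 54 normalized counts with no such order. Pax3, a factor of migrating muscle precursors, held 6, 10, 28, 8 and 9 normalized counts in controls 1 to 5, 20, 41, 14, 4 and 9 in knockouts 1 to 5 and 25, 14, 6, 16 and 14 in D489V samples 1 to 5.

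All 6 slow fibre markers (Myh7, Tnnt1, Tnni1, Tnnc1, Myl2 and Myl3) were highest in the same 6 samples. Their sum was 13891, 42284, 26805, 68777 and 162300 normalized counts in controls 1 to 5, 3439, 15231, 163879, 123634 and 103066 in knockouts 1 to 5 and 44779, 34073, 181923, 38640 and 49525 in D489V samples 1 to 5. The 6 samples lay at 68777 or more and the others at 49525 or less. Of the 9 general muscle fibre markers 1 had the same order, Mb, the oxygen store myoglobin. Lymph node genes followed only in part. Their 5-gene sum was 921 to 3176 in control 5 and knockouts 3 to 5, but only 22 for control 4 and 40 for D489V 3. The remaining 9 samples lay at 18 to 174. Of 4 adipocyte markers 1, Plin1, was lowest in the 6 samples. The part of fibre type, lymph node tissue or adipocytes in the Hox order was not tested.

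**Figure D3:**
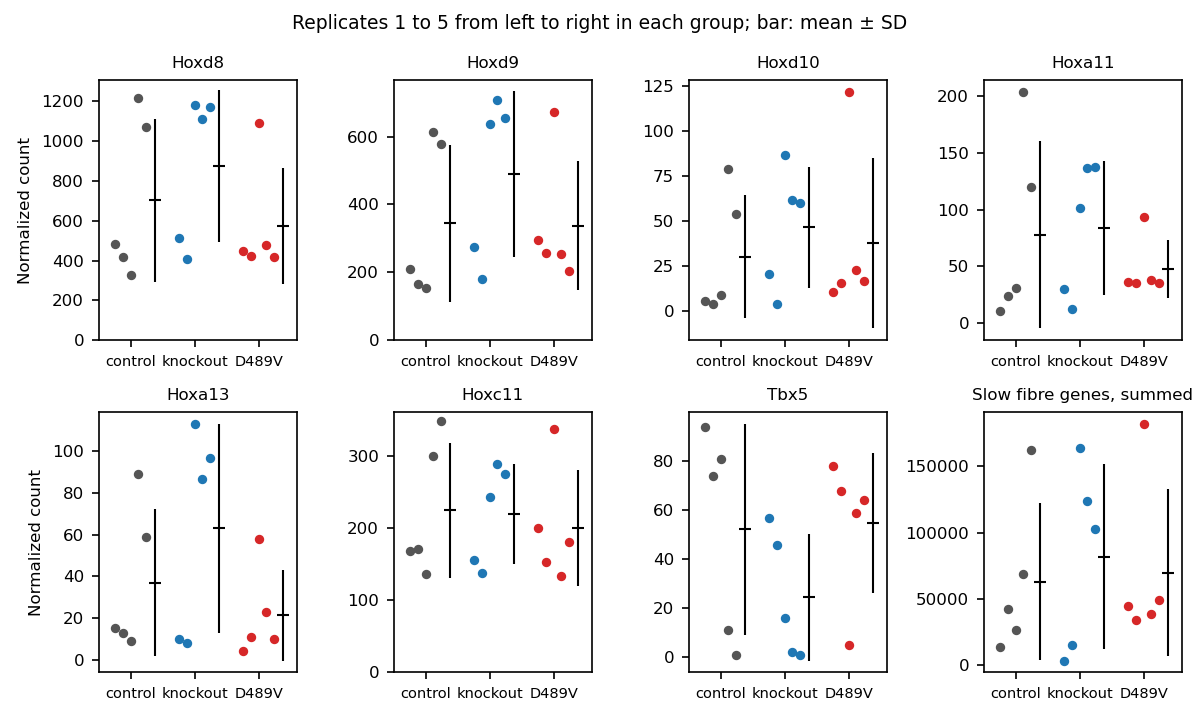
Normalized counts of 6 Hox genes, of Tbx5 and of 6 slow fibre genes summed, with 1 point per sample in replicate order and bars for the mean ± SD of each group (n = 5). In each Hox panel controls 4 and 5, knockouts 3 to 5 and D489V 3 lie above the other 9 samples, and for Tbx5 they lie lower.

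Noncoding RNAs of the clusters were read too. Hotair, transcribed within Hoxc near Hoxc11, held 19, 23, 13, 63 and 52 normalized counts in controls 1 to 5, 7, 9, 32, 34 and 51 in knockouts 1 to 5 and 6, 24, 69, 10 and 23 in D489V samples 1 to 5. Hoxd3os1, antisense to Hoxd3 and Hoxd4, held 77, 44, 45, 120 and 143 normalized counts in controls 1 to 5, 84, 54, 86, 112 and 86 in knockouts 1 to 5 and 71, 82, 198, 65 and 55 in D489V samples 1 to 5. Both had the same 6 samples highest, for Hoxd3os1 with a narrow gap from 86 to 84. Hoxa11os held 0, 9, 8, 35 and 17 normalized counts in controls 1 to 5, 15, 4, 26, 31 and 25 in knockouts 1 to 5 and 7, 7, 41, 11 and 18 in D489V samples 1 to 5, and its order missed the same 6 by control 5 at 17 and D489V 5 at 18. Of 16 such RNAs in the tables, 8 had a mean under 1, and Mir10b and Mir196b were listed at 0 in every sample.

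The first comparison was knockout against control muscle. No Hox gene passed in limma at a Benjamini-Hochberg adjusted p under 0.05 over 15234 genes, where 0.00656% of all genes did. At an unadjusted p under 0.05 there were 2 of 29, Hoxa3 and Hoxb7, against 15.1% of all genes. The groups did not overlap for 1 of 29, Hoxb7, against 2.24% of all genes. The median log2 change of the 29 was -0.28, and 22 were lower, against a median of 0.01 and 48.5% lower over all genes. Hoxb7 held 68, 53, 41, 49 and 51 normalized counts in controls 1 to 5, 25, 40, 22, 40 and 16 in knockouts 1 to 5 and 52, 40, 39, 39 and 46 in D489V samples 1 to 5. Every knockout lay at 40 or less and every control at 41 or more. Its log2 change was -0.91 (standard error 0.28, limma adjusted p 0.296).

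The Hoxd genes had wide intervals in this comparison. The log2 changes of Hoxd8, Hoxd9 and Hoxd10 were 0.38, 0.59 and 0.92 with standard errors of 0.42, 0.50 and 0.93 (limma adjusted p 0.656, 0.556 and 0.626). With 3 of 5 knockouts and 2 of 5 controls among the high samples, these means hold a mixture in each group. Hoxc10 changed by -0.09 with a standard error of 0.10, from 2113 ± 121 in controls to 1994 ± 298 in knockout (SD, n = 5; limma adjusted p 0.652).

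The second comparison was D489V against control muscle. No Hox gene passed in limma over 15339 genes, where 0.0587% of all genes did, and none had an unadjusted p under 0.05, against 9.43% of all genes. None of the 29 had groups that did not overlap, against 2.16% of all genes. The median log2 change was 0.19, with 8 of 29 lower, against a median of 0.00 and 49.6% lower over all genes. The lowest limma adjusted p was 0.536, for Hoxa3, which stood at 111 ± 17.5 in controls and 140 ± 24.1 in D489V muscle (SD, n = 5). Both comparisons use the same 5 controls. For Hoxb4 the log2 changes were -0.76 in knockout and 0.49 in D489V, and for Hoxc8 they were -0.80 and 0.72, with limma adjusted p of 0.333, 0.702, 0.487 and 0.706 in that order.

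Knockout against D489V muscle gave the second pattern. Of the 29 Hox genes, 8 were lower in knockout and none higher at a limma adjusted p under 0.05, against 20.8% of all 15299 genes called, 10.3% lower and 10.5% higher. The share of 27.6% is near that of all genes, while all 8 lay on one side. The 8 were Hoxa3, Hoxa5, Hoxb3, Hoxb4, Hoxb5, Hoxb8, Hoxc6 and Hoxc8. All carry numbers from 3 to 8, and none of the 10 tested genes numbered 9 to 13 passed. This limit did not hold in every alternative. Hoxc9 passed with array weights, with the replicate block and without knockout 1, Hoxa9 passed without knockout 1, and Hoxb2 passed with array weights. The median log2 difference was -0.76 for the 4 tested genes numbered 1 to 3, -0.65 for the 15 numbered 4 to 8 and 0.07 for the 10 numbered 9 to 13, against 0.00 over all genes. The groups did not overlap for 5 of the 29 (17.2%), all lower in knockout, against 13.9% of all genes in either direction and 6.7% in that one. On average 23 of the 29 were lower, against 49.9% of all genes. In limma 16 had an unadjusted p under 0.05, all lower, against 37.7% of all genes and 18.3% in that direction. The 6 high samples of the first pattern include knockouts 3, 4 and 5, but D489V 3 alone of the D489V samples. Among the 6 lowest samples of a called gene, they numbered 6 for Hoxc6 and 5 for Hoxa3, Hoxb4 and Hoxc8. They numbered 4 for Hoxb5 and 3 for Hoxa5, Hoxb3 and Hoxb8 (with a tie for Hoxb8). The part of the first pattern in these differences was not tested.

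By cluster, 4 of 8 Hoxb genes passed, 2 of 10 Hoxa genes, 2 of 7 Hoxc genes and 0 of 4 Hoxd genes. Every one of the 8 tested Hoxb genes was lower in knockout on average, with a median log2 difference of -0.84. Summed over the cluster, Hoxb gave 693, 548, 272, 219 and 294 normalized counts in controls 1 to 5, 226 to 276 in the 5 knockouts and 368 to 581 in the 5 D489V samples. Controls 1 and 2 lay within or above the D489V range and controls 3 to 5 near the knockout range.

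Hoxb4 had the lowest p of the members. It held 158, 136, 77, 49 and 43 normalized counts in controls 1 to 5, 55, 60, 44, 38 and 44 in knockouts 1 to 5 and 174, 123, 110, 99 and 85 in D489V samples 1 to 5. Every knockout, at 38 to 60, lay below every D489V sample, at 85 to 174, with means of 48.2 ± 9.01 and 118 ± 34.2 (SD, n = 5). The log2 difference was -1.25 (standard error 0.21, limma adjusted p 0.00415). Hoxb8 held 59, 53, 16, 16 and 19 normalized counts in controls 1 to 5, 17, 18, 11, 19 and 25 in knockouts 1 to 5 and 64, 57, 41, 27 and 51 in D489V samples 1 to 5. Its knockouts did not exceed 25 and its D489V samples did not fall below 27, a log2 difference of -1.35 (standard error 0.28, limma adjusted p 0.00999).

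Hoxc8 had the largest difference of the 29, -1.51 on the log2 scale (standard error 0.35, limma adjusted p 0.0141). The means were 126 ± 66 in knockout and 343 ± 138 in D489V muscle (SD, n = 5), and the highest knockout at 201 stood below the lowest D489V sample at 228. Its values spread by 9 times over the 15 samples, as given with the first pattern, and the lower 3 knockouts belong to the 6 samples named there. Hoxc6, with a log2 difference of -0.86 and a standard error of 0.28, had overlapping groups (limma adjusted p 0.0464).

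Hoxa3 and Hoxa5 were lower in knockout without overlap. Hoxa3 held 136, 121, 104, 100 and 93 normalized counts in controls 1 to 5, 92, 103, 80, 78 and 68 in knockouts 1 to 5 and 175, 153, 113, 133 and 128 in D489V samples 1 to 5. Its log2 difference was -0.73 (standard error 0.16, limma adjusted p 0.0123). Hoxa5 held 143, 148, 91, 96 and 120 normalized counts in controls 1 to 5, 89, 80, 103, 96 and 88 in knockouts 1 to 5 and 200, 167, 132, 115 and 122 in D489V samples 1 to 5. Its log2 difference was -0.66 (standard error 0.17, limma adjusted p 0.0198). In both, the controls overlapped knockout and D489V samples.

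Hoxb3 and Hoxb5 completed the 8. Hoxb3 held 82, 70, 42, 20 and 44 normalized counts in controls 1 to 5, 41, 25, 23, 59 and 31 in knockouts 1 to 5 and 74, 48, 63, 55 and 59 in D489V samples 1 to 5. Knockout 4, at 59, lay inside the D489V range, and the log2 difference was -0.79 (standard error 0.26, limma adjusted p 0.0460). Hoxb5 held 75, 64, 18, 25 and 35 normalized counts in controls 1 to 5, 33, 20, 26, 20 and 24 in knockouts 1 to 5 and 54, 63, 46, 30 and 41 in D489V samples 1 to 5. Its groups overlapped between 30 and 33, and the log2 difference was -0.88 (standard error 0.24, limma adjusted p 0.0256). Hoxb3os, antisense to Hoxb3, held 240, 193, 86, 71 and 63 normalized counts in controls 1 to 5, 59, 76, 63, 40 and 62 in knockouts 1 to 5 and 232, 207, 142, 145 and 128 in D489V samples 1 to 5. It was lower in knockout by -1.48 on the log2 scale (standard error 0.21, limma adjusted p 0.00247), and reads of both strands cannot be told apart if strand was not used in counting.

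**Figure D4:**
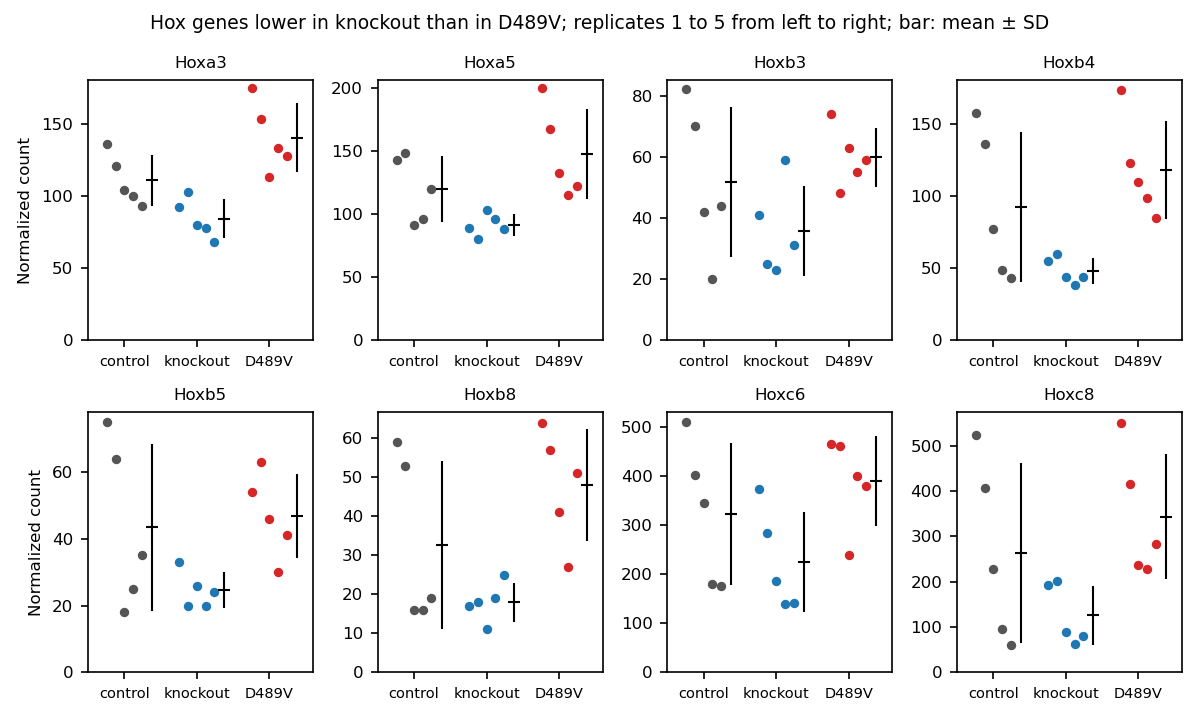
Normalized counts of the 8 Hox genes with a limma adjusted p under 0.05 in knockout against D489V, with 1 point per sample in replicate order and bars for the mean ± SD (n = 5). In the Hoxb4 panel all knockouts lie at 38 to 60 and all D489V samples at 85 to 174, while controls 1 and 2 lie at 158 and 136 and controls 4 and 5 at 49 and 43.

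Other members with a mean of 50 or more did not pass. Hoxa7 held 728, 657, 508, 371 and 283 normalized counts in controls 1 to 5, 523, 426, 372, 300 and 377 in knockouts 1 to 5 and 744, 629, 453, 468 and 495 in D489V samples 1 to 5. It differed by -0.48 on the log2 scale (95% interval -0.85 to -0.11, limma adjusted p 0.0635), with overlapping groups. Hoxa9 held 487, 486, 378, 355 and 295 normalized counts in controls 1 to 5, 438, 340, 300, 303 and 272 in knockouts 1 to 5 and 442, 450, 344, 412 and 373 in D489V samples 1 to 5, a narrow range of 1.79 times over all samples. Hoxb6 held 173, 111, 53, 41 and 78 normalized counts in controls 1 to 5, 77, 50, 69, 72 and 63 in knockouts 1 to 5 and 112, 162, 131, 81 and 65 in D489V samples 1 to 5, with a log2 difference of -0.67 (limma adjusted p 0.0642).

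The Hoxc genes at the 3' end spread by 2.14 and 2.28 times over all samples. Hoxc4 held 286, 234, 166, 245 and 168 normalized counts in controls 1 to 5, 241, 193, 227, 164 and 134 in knockouts 1 to 5 and 287, 240, 208, 204 and 229 in D489V samples 1 to 5. Hoxc5 held 139, 112, 86, 88 and 61 normalized counts in controls 1 to 5, 108, 83, 67, 61 and 70 in knockouts 1 to 5 and 133, 107, 98, 85 and 98 in D489V samples 1 to 5. Their log2 differences between knockout and D489V were -0.30 and -0.43 (limma adjusted p 0.205 and 0.108). Hoxa4 held 81, 69, 56, 101 and 78 normalized counts in controls 1 to 5, 38, 52, 62, 57 and 71 in knockouts 1 to 5 and 76, 90, 68, 57 and 53 in D489V samples 1 to 5, with a log2 difference of -0.30 (limma adjusted p 0.319) and no clear order of samples. Hoxc9 came close to the threshold at -0.48 (limma adjusted p 0.0742). Hoxb2, at -1.20, had a standard error of 0.45 (limma adjusted p 0.0742).

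The posterior genes did not pass, and the intervals of Hoxa11, Hoxa13 and Hoxd8 to Hoxd10 were wide. Hoxa13 differed by 1.34 on the log2 scale (95% interval -0.48 to 3.16, limma adjusted p 0.262). Hoxa11 differed by 0.43 (95% interval -0.89 to 1.75), Hoxd10 by 0.36 (95% interval -1.36 to 2.08), Hoxd9 by 0.49 (95% interval -0.40 to 1.38) and Hoxd8 by 0.59 (95% interval -0.16 to 1.35). Hoxc10 had the narrowest interval, from -0.30 to 0.13, and that of Hoxa10 ran from -0.25 to 0.22. The intervals of Hoxa9 (-0.60 to -0.0076) and Hoxc9 (-0.88 to -0.09) lay below 0, with limma adjusted p of 0.124 and 0.0742.

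**Figure D5:**
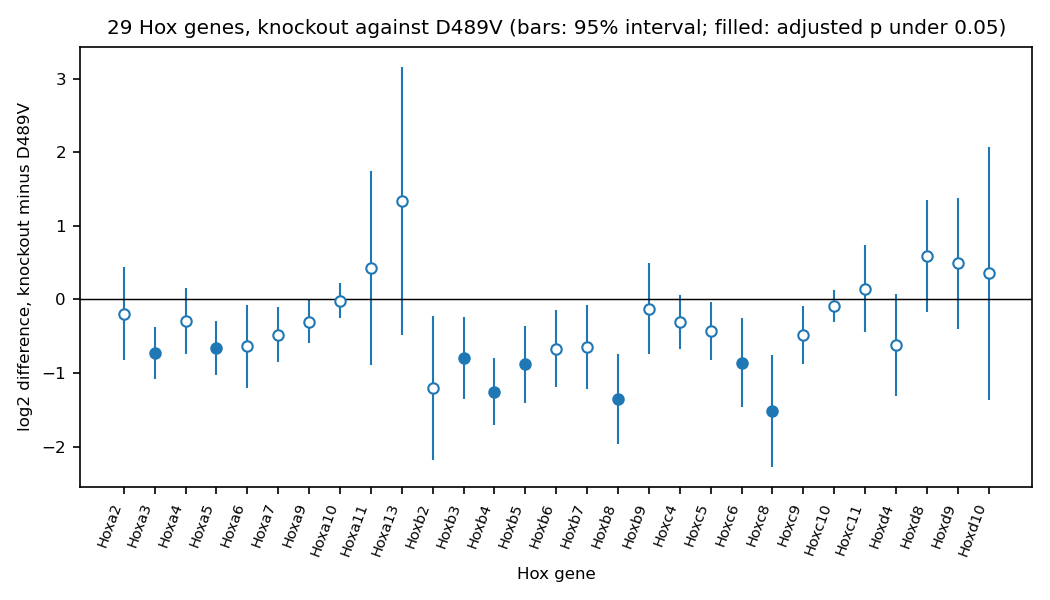
Log2 difference of 29 Hox genes, knockout minus D489V on log2(value + 1), with 95% intervals from limma, in cluster and number order; filled points have an adjusted p under 0.05. The 8 filled points lie between -0.66 and -1.51, and the 6 genes Hoxa11, Hoxa13, Hoxc11, Hoxd8, Hoxd9 and Hoxd10 have positive differences with intervals that include 0.

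The count of 8 depended on single samples. It was 4 without D489V 1 and 4 without D489V 2, the D489V samples with the highest Hoxb sums. The count over all genes fell as well, from 3181 to 1398 without D489V 1 and to 1526 without D489V 2. When knockout 3 and D489V 3 were both left out, the Hox count was 5 and that over all genes 1589. That choice was made after seeing the data. It still leaves knockouts 4 and 5, but no D489V sample, among the high samples of the first pattern. Without D489V 1 or 2, the adjusted p in limma was 0.0508 or 0.0567 for Hoxa5 and 0.0689 or 0.0711 for Hoxb5. Without D489V 3 that of Hoxb5 was 0.0508, and without knockout 3 and D489V 3 together it was 0.0693. Hoxa3, Hoxb4 and Hoxb8 passed in every alternative run, 21, 21 and 20 in number. Hoxc8 passed in 20 of 21, with a limma adjusted p of 0.0570 in the fit of all 15 samples. Hoxb3 passed in 5 of 20 and Hoxc6 in 9 of 21, with limma adjusted p up to 0.153 and 0.111. Without knockout 1, 9 of the 29 genes had groups that did not overlap, up from 5. The same count over all genes was not made in that run.

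Genes of other cell types differed between the same groups. Over all genes tested in knockout against D489V, 10.3% passed as lower and 10.5% as higher in knockout. All 5 Schwann cell markers were lower in knockout, with sums of 5592 to 8825 against 11173 to 45477 in D489V and 7862 to 12849 in controls. All 5 endothelial markers were lower, with sums of 7567 to 12400 against 14852 to 17396, and 13178 to 18872 in controls. Of 4 adipocyte markers 3 were lower, with sums of 5282 to 8586 against 14072 to 50845, and 1519 to 28386 in controls. Of 7 markers of fibro-adipogenic progenitors, the stromal cells of muscle, 0 passed. Their sums were 25528 to 104772 in knockout and 42205 to 67268 in D489V. These sums are mostly Col1a1, which was higher in knockout, with means of 55615 and 39610. On average 6 of the 7 were lower in knockout, against 49.9% of all genes. Only Pdgfra had groups without overlap, at 371 to 662 in knockout and 674 to 870 in D489V (log2 difference -0.43, limma adjusted p 0.0628). None of the 4 tendon markers passed, and of 4 satellite cell markers 1, Cdh15, was higher. Of 6 mural cell markers 1 was higher and 2 were lower. The part of these cells in the Hox differences was not tested.

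The Hox cofactors were read next. Homeodomain proteins of the Pbx, Meis and Pknox families bind DNA together with Hox proteins, and 8 of 9 were tested. None passed in knockout or D489V against control. In knockout against D489V 1 of 8 passed, against 20.8% of all genes. This was Meis3, at 51 ± 9.14 in knockout and 85.8 ± 19.3 in D489V (SD, n = 5), a log2 difference of -0.73 (standard error 0.20, limma adjusted p 0.0246). Pknox2, with the highest mean of the list, and Pbx2 had limma adjusted p of 0.442 and 0.0941 in this comparison.

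Of 22 tested limb and position factors, none passed in either comparison with controls. In knockout against D489V 5 of the 22 passed, against 20.8% of all genes. Tbx2, Tbx3 and Shox2 were lower, by -0.84, -0.45 and -0.87 on the log2 scale (limma adjusted p 0.0212, 0.0122 and 0.0102). Tbx2 and Tbx3 act at the limb margins and Shox2 in the upper limb segment. En1, a ventral limb factor, and Tbx4 were higher, by 0.38 and 0.73 (limma adjusted p 0.0301 and 0.0394). Tbx5 had a log2 difference of -1.77 (standard error 1.00, limma adjusted p 0.217).

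Most known regulators of the Hox clusters were read, but Cdx4 was listed at 0 in every sample and Cdx1 and Cdx2 had means of 0.267 and 0.467. Polycomb proteins keep Hox genes silent and Trithorax proteins keep them active. Of 21 Polycomb genes 3 were higher and 3 lower in knockout than in D489V, against 10.5% higher and 10.3% lower over all genes. Jarid2, Rbbp7 and Bmi1 were higher, and the lower ones included Pcgf2 and Ring1. Of 10 Trithorax genes and H3K27 demethylases, Ash2l and Rbbp5 were higher and Kmt2b and Kdm6b lower. Of 12 genes upstream of Hox that were tested there, mainly of retinoic acid signalling, Rarb was higher and Rara and Rarg were lower. None of these genes passed in knockout or D489V against control. Of the 16 upstream genes in the tables, 1 had the 6 samples of the first pattern highest, Aldh1a2. It held 57 to 258 normalized counts in these samples and 9 to 38 in the others.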

How the data were processed

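Poly(A) RNA of skeletal muscle was sequenced from directional libraries, per the labels' protocols. The submitters' processing notes name Trim Galore 0.6.0, STAR 2.7.0e, DESeq2 1.26.0 and GRCm38, without their roles. The deposited values behave as normalized counts that the authors rounded to whole numbers, and were handled as a score rather than as raw counts. Reads per sample were not recovered, so no count test was run and no counting interval is given. For each comparison, limma 3.58.1 (R 4.3.3, lmFit and eBayes with trend) was fitted on log2(value + 1). Differences of low genes come out too small on this scale. The fit used the 10 samples compared, genes with 10 or more in at least 5 of them, and Benjamini-Hochberg adjustment over all genes tested. The 5 control columns were identical in both deposited tables. Genes were joined by identifier, since 27 gene names had become dates in 1 of them. All 55536 identifiers matched GENCODE M21, which gave positions and exon lengths, and promoter windows came from RefSeq (GRCm38.p6). Scripts used Python 3.11.15, and the fit was tested on simulated data. Groups came from the labels. Every sample is printed for members with a mean of 50 or more, or that passed a test or did not overlap, except the D489V samples of Hoxa10, given as a range. Genes named from other lists passed a test, had the highest means, were singled out after their values were seen or were Tbx5, Tbx4, Pitx1 or Pax3. Values of some genes are not reported here. The members and lists were chosen with earlier results of these data known. Alternatives were the pseudocount, filters, upper-quartile and quantile scaling, robust fits, array weights, a fit of all 15 samples, a replicate block and leaving out samples.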

Additional observations from a re-analysis of the deposited data

Results flagged for a closer look

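In 3 of 87 groups of 5 samples, 1 sample stood apart from the other 4 by more than Dixon's critical value of 0.71 for the gap over the range, on the log2(value + 1) scale. Chance flags about 1 in 20 groups, which is 4.3 of 87. D489V 3 held 93 normalized counts of Hoxa11, against 35 to 38 in the other D489V samples, a gap of 0.917 of the range. The same sample held 1091 of Hoxd8, against 418 to 480 in the others, a gap of 0.856. Knockout 4 held 3 of Hoxb2, against 14 to 22 in the other knockouts, a gap of 0.756. On the scale of the counts, a choice made after seeing the data, 5 groups passed. Hoxa11 and Hoxd8 were among them, at 0.948 and 0.908, and Hoxb2 was not. The others were D489V 3 for Hoxd9 (672 against 204 to 294, 0.808) and Hoxd10 (122 against 11 to 23, 0.892) and knockout 1 for Hoxc10 (2508 against 1746 to 1960, 0.719).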

How the results depend on the processing

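No Hox gene changed direction while passing the test. In knockout against control, 1 gene of all passed, against 3 after upper-quartile scaling, 3 after quantile normalization and 16 in the fit of all 15 samples, and 1 to 7 with a sample left out. The 1 Hox gene without overlap became 0 at a mean of 50 or more and 0 after quantile normalization, and 1 to 2 with a sample left out. In D489V against control, 9 genes passed, against 19 with a pseudocount of 5, 4 at a mean of 50 or more, 23 after upper-quartile scaling, 16 after quantile normalization, 21 in the robust fit, 86 with array weights and 1 in the fit of all 15 samples. Leaving out a sample gave 2 to 26, with 26 without D489V 3, and 0 to 1 Hox genes without overlap, with 1 without control 3. In knockout against D489V, the 8 Hox genes became 5 with no filter, 5 at a mean of 50 or more, 5 after quantile normalization, 4 in the fit of all 15 samples, 9 after upper-quartile scaling, 12 with array weights and 4 to 11 with a sample left out. Array weights gave 4458 genes in all. All genes fell from 3181 to 1589, and Hox genes to 5, without knockout 3 and D489V 3 (chosen after seeing the data), and all genes ranged from 1398 to 3686, and Hox genes without overlap from 5 to 9, with a sample left out. At a mean of 50 or more, only 18 Hox genes were tested in knockout against D489V. Hoxb3, Hoxb5 and Hoxb8 were not among them, and the other 5 passed again. Hoxb7, the 1 Hox gene without overlap in knockout against control, was likewise removed by that filter. The cause of the other changes was not tested. After upper-quartile scaling 42% of the genes called there were higher in knockout, against 50.3%. Deviations of same-numbered samples from their group means had correlations from -0.4 to 0.39. As these deviations also hold the first pattern, they cannot show whether the numbers mark a shared litter, batch or day. With the replicate block 1, 7 and 2208 genes passed in the 3 comparisons, with 0, 0 and 9 Hox genes, of which 7 were among the 8. Depth limits the 10 untested Hox genes, for which no difference was detectable.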
